A study of Sus scrofa with 6 samples.

Results

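Ion channel genes encode the membrane pores that carry sodium, potassium, calcium and chloride across the membranes of muscle fibres, neurons and many other cells, together with the subunits that join these pores. They were followed here through the regions whose DNA methylation differed between an oxidative and a glycolytic muscle of the pig. A gene was taken as a member when its symbol began with KCN (potassium channels), CACN (voltage-gated calcium channels), SCN and a digit (sodium channels), CLCN (chloride channels and exchangers), TRPC, TRPM or TRPV (transient receptor potential channels), RYR (ryanodine receptors), ANO and a digit (anoctamins), HCN and a digit (pacemaker channels), GABR (GABA-A receptors), GRIA, GRIK, GRIN or GRID (glutamate receptors) or CHRN (nicotinic receptors), and when a listed differentially methylated region (DMR) lay in its promoter, an exon or an intron. The rule found 58 genes with 101 DMRs, among 3513 named genes with 5700 DMRs in these parts of genes and 15633 DMRs in the whole list. *KCNJ15* and *SCN2B* had only a DMR downstream of the gene and were not members, and no gene whose symbol begins with TRPV was found. *TRPC4AP* entered by its symbol but encodes a protein that binds TRPC4 and forms no pore, and without it there were 57 genes with 100 DMRs.

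Methylated DNA immunoprecipitation sequencing (MeDIP-seq) had been performed on *psoas major* muscle (PMM), a red oxidative loin muscle, and on *longissimus dorsi* muscle (LDM), a white glycolytic back muscle, with 3 libraries of each. All libraries came from female Landrace pigs aged 210 days, with no treatment given in the labels. The study took both muscles from the same pigs, although no label links a replicate number to an animal. The muscles were therefore compared without pairing, and p-values set a difference beside the spread between these libraries, which may be in part technical. The source name of every sample reads *longissimus dorsi*, so the muscle was taken from the sample titles. RNA was not analysed here and the labelled muscles could not be checked against marker genes. A muscle sample also holds cells of vessels, nerves and connective tissue, and a different share of cell types cannot be told apart from different methylation within a cell type.

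The measurement is the mean read depth per CpG of a DMR, scaled by the authors to make the libraries comparable. It is a relative signal, since an antibody pulls down fragments more readily when they carry many methylated cytosines. The list holds only regions of 5 or more CpGs that had been selected on these same 6 libraries because they differed between the muscles. A test on such a region sets its difference beside the variation among libraries and adds no independent evidence that it differs. Depths were compared as log2(depth + 1), and every difference is PMM minus LDM. Over all 15633 DMRs the median depth per library was 25.4, 23.8 and 23.9 in PMM and 28.0, 26.2 and 27.1 in LDM. Positions refer to the build Sscrofa10.2, and values in a sentence stand in the order of replicates 1, 2 and 3 of a muscle.

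A skeletal muscle fibre is excited when acetylcholine opens nicotinic receptors at the nerve ending, after which sodium channels spread the action potential along the membrane. Voltage sensors of the calcium channel family in the tubules then open the ryanodine receptor RYR1, which releases calcium from the store, while potassium channels and the chloride channel ClC-1 return the membrane to rest. Other channel genes, such as those of glutamate receptors, are best known from neurons. Methylation of a CpG-rich promoter usually goes with a silent gene, whereas methylation within the body of a gene is common in genes that are transcribed.

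Among the 101 channel DMRs, read depth was above LDM in PMM in 62 and below LDM in 39. The higher DMRs had a median depth of 50.9, 58.5 and 57.4 in PMM and of 31.8, 30.6 and 29.9 in LDM. The lower DMRs had a median depth of 11.9, 8.14 and 9.56 in PMM and of 27.2, 25.6 and 30.7 in LDM. In LDM the medians of both sets lay between 25.6 and 31.8, and the sets parted in PMM. All 101 passed an adjusted p of 0.05 in limma, where 99.9% of all listed DMRs passed. Those higher in PMM made up 61.4% of the channel DMRs, against a background of 55.9% of all listed DMRs, and for those lower in PMM the background was 44.0%. In every channel DMR all PMM libraries lay on the same side of all LDM libraries, which held for 100% of the listed DMRs.

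The median difference of the channel DMRs was 0.70 on the log2 scale, beside 0.56 for all listed DMRs. The falls were larger than the rises, as in the whole list. Channel DMRs higher in PMM had a median change of 1.73-fold and those lower in PMM of 2.76-fold, beside 1.80-fold and 2.61-fold over all listed DMRs. A change of over 2-fold was reached by 17 of the 62 higher DMRs and by 32 of the 39 lower ones. By the mean of a gene's DMRs, 29 genes were higher in PMM and 29 were lower. PMM replicate 1 was the PMM library nearest to LDM in 70 of the 101 channel DMRs, or 69.3%, beside 61.8% of all listed DMRs. Among the 39 lower channel DMRs this held for 31, or 79.5%, beside 65.5% of the lower DMRs of the list. All 101 calls were also made without this library, with a median difference of 0.72.

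**Figure D1:**
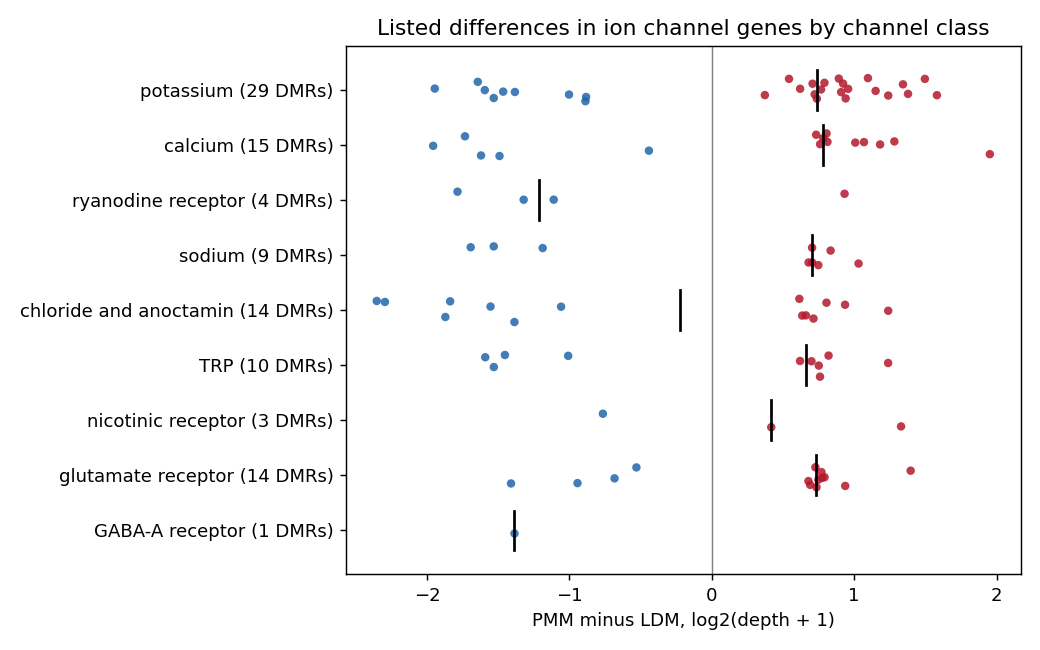
Each point is a DMR of an ion channel gene in 1 of the 9 channel classes shown, placed by its difference PMM minus LDM of log2(depth + 1) along the horizontal axis and by channel class along the vertical axis, with red points for DMRs higher in PMM, blue points for DMRs lower in PMM and a black bar at the class median. Potassium, calcium, sodium, TRP and glutamate receptor genes have more points on the right, with medians between 0.66 and 0.78, whereas the 4 DMRs of the ryanodine receptor have a median of -1.22.

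DMRs of genes of skeletal muscle excitation were more often lower than higher in PMM, in a list chosen with earlier results of these data known. From a list of 32 such genes, 9 were members, among them *RYR1*, *CLCN1*, *KCNMA1*, *KCNC4*, *TRPM4*, *ANO5* and *CHRNB1*. They held 14 DMRs, 5 higher in PMM and 9 lower, with a median difference of -1.22 beside 0.70 for all channel DMRs. The share higher was 35.7%, beside 55.9% of all listed DMRs, and *RYR1* alone held 4 of the 14, 3 of them lower. DMRs of these 9 genes were also denser in CpGs, with a median of 6.35 CpGs per 100 bp against 4.72 for all channel DMRs. The share higher that other named genes would have at these densities was not worked out for this list. After subtraction of the trend of depth on CpG density over all listed DMRs, 10 of the 14 passed in their original direction, 3 higher and 7 lower. The matching shares were 48.5% of the channel DMRs and 53.8% of all listed DMRs. As the list was chosen with earlier results known, this comparison describes the list and is no test of its genes. The other 23 genes of the list, among them *CACNA1S* and *SCN4A*, which encode the voltage sensor and the main sodium channel of skeletal muscle, had no listed DMR in a promoter, exon or intron.

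*RYR1*, the calcium release channel of the sarcoplasmic reticulum, carried 4 DMRs within 56.0 kb. The only one in an exon, at chr6:42874455-42874542, had depths of 8.89, 2.71 and 9.01 in PMM and 19.8, 25.2 and 26.6 in LDM. It was 3.45-fold lower in PMM, with a difference of -1.79 ± 0.37 (SE) and an adjusted p of 0.000986 in limma. PMM replicate 2 was the lowest library there, and all PMM libraries lay below all LDM libraries. A pair of intronic DMRs further along the gene was lower in PMM as well. The one at chr6:42885953-42885968 packed 5 CpGs into 16 bp and had depths of 10.7, 7.44 and 8.73 in PMM and 25, 19.9 and 26.5 in LDM. The one at chr6:42887869-42888086 spanned 19 CpGs and had depths of 17.3, 10.1 and 11.4 in PMM and 27.2, 29.9 and 28.1 in LDM. The fourth DMR, 42.3 kb away in another intron at chr6:42930370-42930470, ran the other way and was 1.91-fold higher in PMM, with depths of 15.5, 15.1 and 14.6 in PMM and 6.40, 8.91 and 7.12 in LDM.

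*CLCN1* encodes ClC-1, the chloride channel that keeps the resting muscle fibre from firing, and it carried DMRs of both directions. The DMR in its first intron, at chr18:7180689-7180747, had depths of 4.85, 0.194 and 1.56 in PMM and 13.8, 9.50 and 12.6 in LDM. It was 4.91-fold lower in PMM, among the largest falls in channel genes, although PMM replicate 1 was far above the other PMM libraries and the fold ran from 3.32- to 7.34-fold when each library was left out. The other DMR, in an internal intron 10.5 kb away at chr18:7170038-7170181, was 1.91-fold higher in PMM, with depths of 39.4, 48.3 and 40.9 in PMM and 19.3, 24.5 and 21.9 in LDM. The first of these held 10.2 CpGs per 100 bp and the second 4.17.

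Nerve input was represented by 1 DMR. *CHRNB1*, the beta subunit of the muscle nicotinic receptor, had a promoter DMR at chr12:55003878-55004060 with depths of 14.7, 10.1 and 12.7 in PMM and 22.9, 21.9 and 20.4 in LDM. The muscles stood apart there by less than in most lower DMRs, at 1.70-fold lower in PMM with an adjusted p of 0.00242 in limma. This region also lies just downstream of *FGF11*, so it cannot be assigned to 1 of these genes.

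Potassium channels of this list went both ways. *KCNMA1*, the large-conductance potassium channel opened by calcium, was 1.67-fold higher in PMM in its first intron at chr14:85994333-85994531, with depths of 71.5, 69.5 and 73.5 in PMM and 47.1, 46.0 and 35.3 in LDM. *KCNC4*, a fast Kv3-type potassium channel, was 2.76-fold lower in PMM in its last intron at chr4:120285046-120285098, with depths of 10.2, 3.49 and 5.82 in PMM and 17.8, 17.2 and 20.1 in LDM.

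*TRPM4* and *ANO5* were both lower in PMM. *TRPM4*, a channel that lets sodium and potassium through when calcium rises in the cell, had depths of 9.54, 6.98 and 8.70 in PMM and 24.6, 25.1 and 32.4 in LDM in an intron at chr6:49982766-49982843 and was 3.01-fold lower in PMM. *ANO5*, an anoctamin whose loss causes a limb-girdle muscular dystrophy in humans, had depths of 43.5, 24.4 and 28.2 in PMM and 85.5, 79.9 and 83.4 in LDM in an intron at chr2:40425778-40425995 and was 2.61-fold lower in PMM.

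Of the 101 channel DMRs, 5 lay in promoters, 13 touched exons and 83 lay in introns only. Exonic DMRs were mostly higher in PMM, with 11 of 13 (84.6%), beside 69.1% of the exonic DMRs of other named genes. Intronic DMRs were higher in PMM in 48 of 83 cases (57.8%), beside 55.7% in other named genes. Within introns the split was alike along the gene, with 12 of 21 DMRs higher in first introns, 31 of 54 in internal introns and 3 of 5 in last introns. Exonic DMRs of channel genes held fewer CpGs per 100 bp than the intronic ones, with medians of 3.77 and 5.10.

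The promoter DMRs lay in 4 genes, and none overlapped a CpG island. *CHRNA9*, a nicotinic receptor subunit known from the hair cells of the inner ear, had depths of 18.2, 21.4 and 18.3 in PMM and 9.0, 8.29 and 4.62 in LDM at chr8:33109340-33109566. It was 2.51-fold higher in PMM, the largest rise among the promoters. *GRIN2D*, a subunit of NMDA-type glutamate receptors, had 2 adjoining promoter DMRs separated by 4 bp. Depths at chr6:49609739-49609955 were 97.5, 97.9 and 100.1 in PMM and 67.3, 59.4 and 55.7 in LDM, and depths at chr6:49609960-49610076 were 117, 119 and 113 in PMM and 77.0, 59.7 and 67.7 in LDM. They were 1.61-fold and 1.71-fold higher in PMM and, lying side by side, are not independent regions. *KCNH4*, a potassium channel of the brain, was 2.61-fold lower in PMM in a promoter DMR on a CpG island shore at chr12:20881392-20881481, with depths of 14.1, 8.29 and 14.6 in PMM and 31.0, 28.6 and 39.8 in LDM. That region also lies downstream of *HCRT*. With the *CHRNB1* promoter described above, PMM had more signal in 3 promoter DMRs and less in 2.

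**Figure D2:**
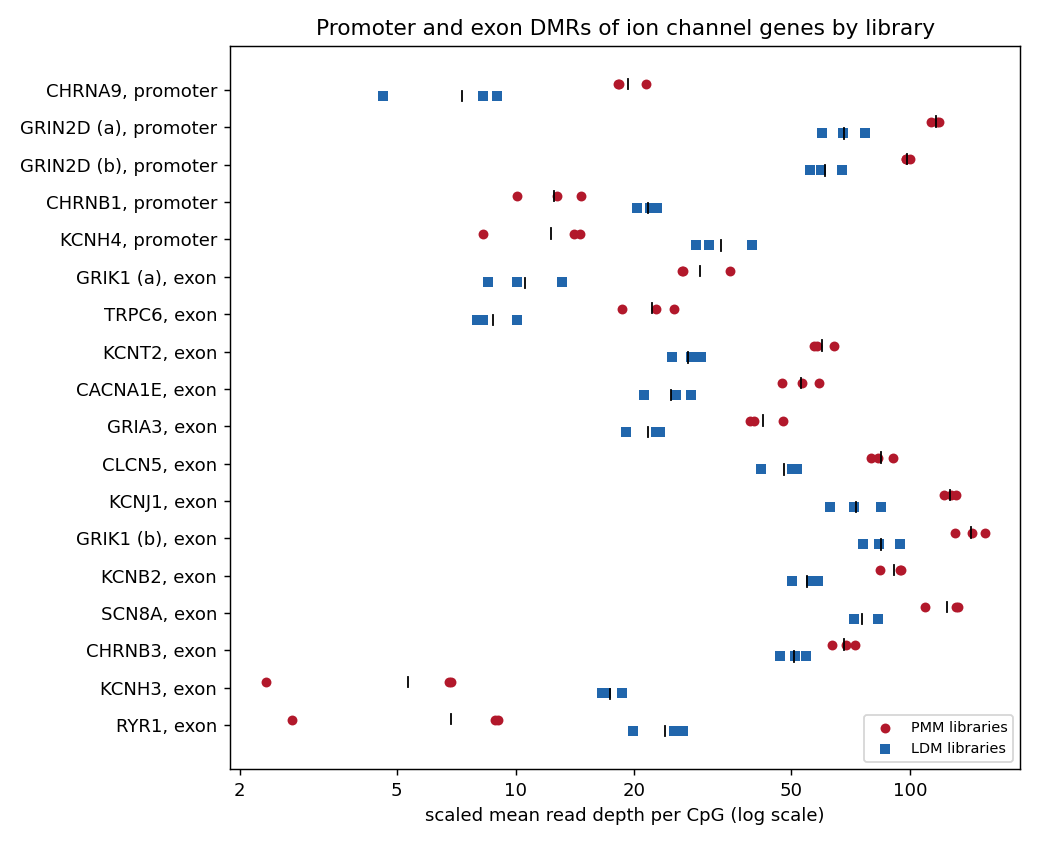
The horizontal axis gives the scaled mean read depth per CpG on a log scale for the 18 promoter and exon DMRs of ion channel genes, with red circles for the 3 PMM libraries, blue squares for the 3 LDM libraries and a black tick at each muscle's mean. In the lower PMM cases *CHRNB1*, *KCNH4*, *KCNH3* and *RYR1* the red circles lie left of the blue squares, and in the other 14 DMRs they lie to the right.

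Among the exons, the largest rises in PMM were in *GRIK1*, *TRPC6* and *KCNT2*. *GRIK1*, a kainate-type glutamate receptor subunit, had exonic DMRs at chr13:203627562-203627782 and chr13:203595141-203595418. Depths were 26.4, 26.6 and 34.9 in PMM and 13.1, 8.52 and 10.1 in LDM in the first and 129.8, 143 and 155 in PMM and 94.5, 83.3 and 75.9 in LDM in the second. Both were higher in PMM, by 1.4 and 0.75 on the log2 scale. *TRPC6*, a calcium-permeable channel opened by diacylglycerol, had depths of 18.6, 25.2 and 22.7 in PMM and 8.0, 8.29 and 10.1 in LDM at chr9:36290679-36290903 and was 2.36-fold higher in PMM. *KCNT2*, a potassium channel opened by sodium, had depths of 58.0, 57.2 and 64.1 in PMM and 29.5, 27.8 and 25 in LDM at chr10:23904639-23904727 and was 2.14-fold higher. *CACNA1E*, the R-type calcium channel, followed with 47.3, 58.6 and 53.4 in PMM and 25.6, 27.8 and 21.1 in LDM at chr9:135387331-135387784.

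The other exonic rises were between 1.3-fold and 2-fold. *GRIA3*, an AMPA-type glutamate receptor subunit, held the longest channel DMR, 1001 bp with 23 CpGs at chrX:115847881-115848881, where depths were 39.4, 40.3 and 47.6 in PMM and 23.3, 22.7 and 19.0 in LDM. *CLCN5*, an endosomal chloride-proton exchanger, had depths of 82.8, 79.6 and 90.6 in PMM and 51.8, 41.8 and 50.2 in LDM at chrX:48722271-48722522. *KCNJ1*, the ROMK potassium channel of the kidney, had depths of 122, 127 and 131 in PMM and 84.4, 72.3 and 62.7 in LDM at chr9:61872152-61872469. These genes were 1.91-fold, 1.75-fold and 1.73-fold higher in PMM. *KCNB2*, a delayed-rectifier potassium channel, had depths of 94.5, 84.2 and 94.7 in PMM and 58.3, 56.0 and 50.3 in LDM in its last exon at chr4:68425983-68426451. *SCN8A*, the sodium channel of the nodes of Ranvier, had depths of 109, 133 and 131 in PMM and 72.2, 82.8 and 72.3 in LDM at chr5:17731545-17731892. *CHRNB3*, a neuronal nicotinic receptor subunit, had the weakest exonic change, 1.34-fold higher at chr17:12687413-12687730, with depths of 72.4, 68.8 and 63.2 in PMM and 46.9, 54.5 and 51.0 in LDM. Its adjusted p was 0.00254 in limma, and 0.0524 with depths before the authors' scaling. Besides *RYR1*, the only exonic fall was in *KCNH3*, a brain potassium channel related to *KCNH4*, with depths of 6.79, 2.33 and 6.86 in PMM and 18.6, 17.0 and 16.6 in LDM at chr5:15917987-15918027. This DMR also lies in an intron of *SPATS2*.

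Potassium channel genes were the largest class, with 16 genes and 29 DMRs, 20 higher and 9 lower in PMM and a median difference of 0.74. Members of a family often pointed the same way. All 3 DMRs of *KCNIP2* and *KCNIP4*, whose products bind Kv4 channels, were higher in PMM. All 4 DMRs of *KCNH3*, *KCNH4* and *KCNH7*, relatives of the ether-à-go-go channel, were lower. The KCNIP DMRs had a median of 3.27 CpGs per 100 bp and the KCNH DMRs of 8.67.

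*KCNT2* carried 5 DMRs over 177 kb, all higher in PMM by 0.62 to 1.58 on the log2 scale. The largest rise of the potassium class was its DMR at chr10:24081417-24081567, with depths of 19.0, 19.2 and 19.9 in PMM and 8.50, 6.22 and 3.60 in LDM. It was 2.99-fold higher in PMM, with a difference of 1.58 ± 0.27 (SE) and an adjusted p of 0.000445 in limma. Its DMR at chr10:24052978-24053469 had depths of 36.3, 49.1 and 48.5 in PMM and 19.3, 19.5 and 12.6 in LDM, and the DMRs at chr10:24032209-24032502 and chr10:24066510-24066843 were 1.86-fold and 1.54-fold higher.

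*KCNN3*, the small-conductance potassium channel SK3 opened by calcium, held 4 DMRs over 127 kb with a change of direction inside the gene. The DMR at chr4:103818352-103818445 lay in a CpG island and was 1.84-fold lower in PMM, with depths of 22.1, 19.2 and 21.2 in PMM and 36.6, 41.1 and 39.9 in LDM. The other 3 were higher in PMM. Their depths were 24.6, 32.0 and 34.5 in PMM and 14.5, 15 and 17.3 in LDM at chr4:103730525-103730749, 36.8, 40.5 and 44.0 in PMM and 18.7, 13.6 and 17.6 in LDM at chr4:103850402-103850529 and 88.5, 83.9 and 98.6 in PMM and 51.3, 57.2 and 56.0 in LDM at chr4:103857939-103858018. The last of these was as dense in CpGs as the island DMR, with 11.2 and 10.6 CpGs per 100 bp.

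The largest fall of the potassium class was in an intron of *KCNH4* at chr12:20889105-20889175, 7.62 kb from its promoter DMR. Depths there were 7.67, 3.88 and 6.24 in PMM and 27.5, 18.1 and 31.1 in LDM, and the region was 3.85-fold lower in PMM. *KCNU1*, the sperm potassium channel Slo3, was 2.89-fold lower in PMM and *KCNH7* 1.85-fold lower. The tandem-pore leak channels parted, with *KCNK13* 2.22-fold higher and *KCNK10* 2.0-fold lower in PMM. *KCNIP2* was 1.90-fold higher at a CpG island shore, and the *KCNIP4* DMRs, 108 kb apart, were 1.94-fold and 2.60-fold higher.

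Voltage-gated calcium channel genes held 15 DMRs in 7 genes, 10 higher and 5 lower in PMM, with a median difference of 0.78. All 7 DMRs of the pore-forming subunits *CACNA1A* and *CACNA1E* were higher in PMM, whereas the accessory subunits of the CACNB and CACNG families had 3 higher and 5 lower. The pore-subunit DMRs were sparse in CpGs, with a median of 2.79 per 100 bp.

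*CACNA1E* carried 6 DMRs over 341 kb. The one at chr9:135235476-135235695 was the largest rise of any channel DMR, with depths of 15.3, 22.3 and 24.1 in PMM and 3.80, 4.35 and 5.39 in LDM. It was 3.87-fold higher in PMM, with a difference of 1.95 ± 0.24 (SE) and an adjusted p of 0.000264 in limma. The signal there was below that of the other *CACNA1E* DMRs in both muscles, which shows as a dip in the plot of depth along the genes. The mean was 20.6 in PMM, beside 53.1 to 68.2 at the others, and 4.52 in LDM, beside 24.8 to 40.8. At chr9:135115226-135115443 depths were 50.9, 65.3 and 64.2 in PMM and 23.6, 26.1 and 27.8 in LDM. The remaining intronic DMRs were smaller rises. They lay at chr9:135455619-135455833, chr9:135244407-135244653 and chr9:135242985-135243064 and were 1.66-fold, 1.72-fold and 1.76-fold higher. *CACNA1A*, the P/Q-type channel of nerve endings, was 1.75-fold higher at chr2:66042112-66042343, with depths of 76.3, 84.7 and 82.3 in PMM and 53.2, 44.0 and 41.3 in LDM.

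**Figure D3:**
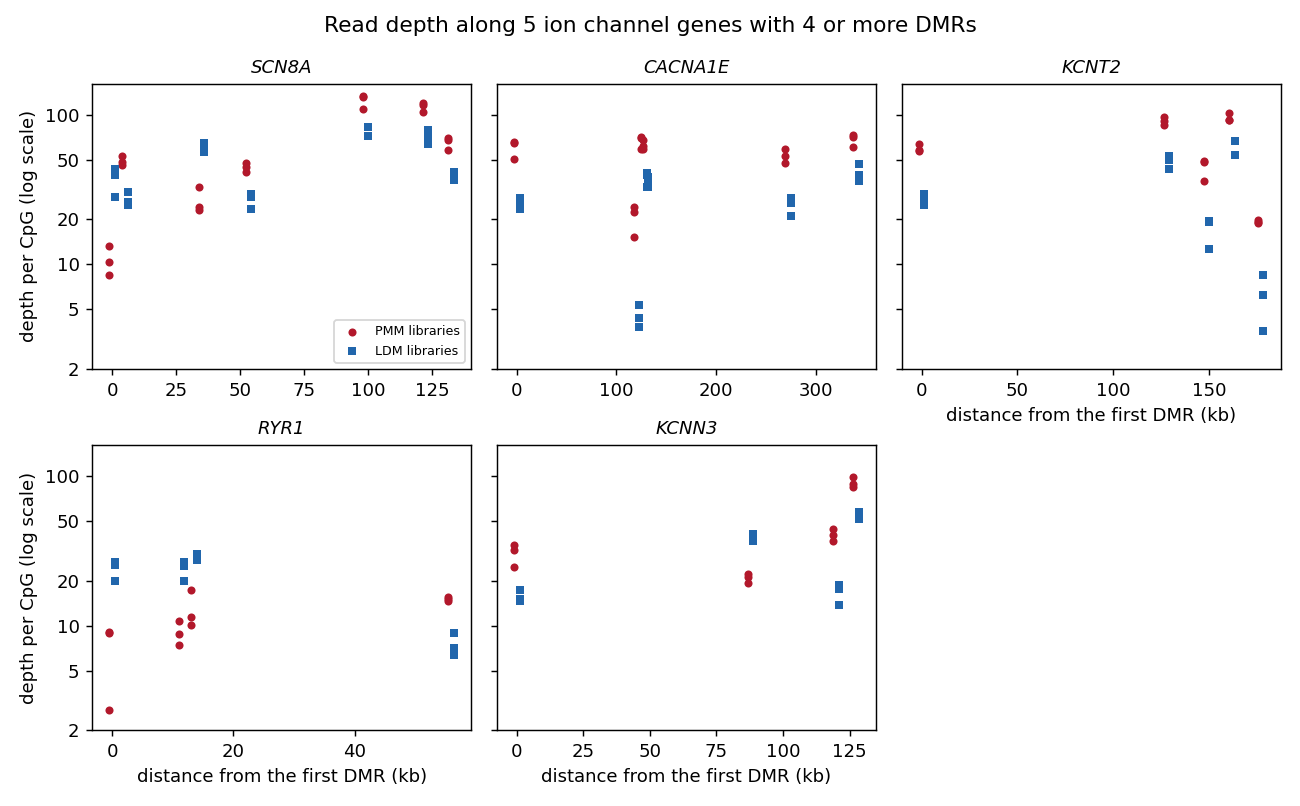
Each of the 5 panels shows 1 ion channel gene with 4 or more DMRs, with the distance from its first DMR in kb along the horizontal axis and the scaled mean read depth per CpG on a log scale along the vertical axis. Red circles are the 3 PMM libraries and blue squares, set slightly to the right for sight, the 3 LDM libraries; *CACNA1E* and *KCNT2* have red above blue at every DMR, whereas *SCN8A*, *RYR1* and *KCNN3* change direction within the gene.

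The accessory subunits changed direction over short distances. *CACNB2*, a beta subunit that brings calcium channels to the membrane, had 3 intronic DMRs within 30.7 kb. Its DMR at chr10:49605211-49605402 was the largest fall of the class, with depths of 11.6, 4.17 and 7.36 in PMM and 30.3, 25.7 and 37.2 in LDM, at 3.88-fold lower in PMM. The DMR at chr10:49574709-49574816 was lower too, with depths of 15.1, 11.3 and 12.9 in PMM and 47.3, 36.6 and 32.7 in LDM, and the one between them, at chr10:49580839-49580959, was higher, with depths of 111, 128 and 141 in PMM and 75.7, 82.5 and 65.2 in LDM. *CACNG4*, a subunit that also serves AMPA receptors, had DMRs 2.63 kb apart in its first intron. One was 2.43-fold higher and the other 3.33-fold lower in PMM, and their CpG densities were alike, at 3.65 and 3.80 CpGs per 100 bp. Depths at chr12:13762758-13763086 were 19.3, 25.3 and 23.8 in PMM and 9.17, 11.0 and 6.56 in LDM, and depths at chr12:13765713-13765870 were 6.46, 3.30 and 5.02 in PMM and 22.3, 17.1 and 15.8 in LDM. *CACNG2*, known as stargazin in mice, was 3.08-fold lower in PMM.

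*CACNG8* and *CACNG6* are neighbours, with DMRs 19.2 kb apart on chromosome 6. *CACNG6*, at chr6:53066720-53067065, was 2.01-fold higher in PMM, with depths of 35.8, 36.1 and 32.2 in PMM and 19.2, 14.5 and 16.8 in LDM. *CACNG8*, which the list pairs with the pig symbol of a microRNA, had its DMR at chr6:53047456-53047537 and was 1.36-fold lower, the smallest fall among channel DMRs, with depths of 26.5, 26.4 and 23.4 in PMM and 34.8, 33.5 and 36.1 in LDM. Its call was lost when each library was scaled to the same median.

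Sodium channel genes held 9 DMRs in 3 genes, 6 higher and 3 lower in PMM, and 7 of them lay in *SCN8A* within 133 kb. The *SCN8A* DMR at chr5:17632523-17632612 was the largest fall of the class, with depths of 13.3, 8.53 and 10.4 in PMM and 39.7, 28.3 and 43.1 in LDM and was 3.23-fold lower in PMM. Only 4.93 kb further in the same intron, at chr5:17637540-17637675, the direction turned, with depths of 48.2, 52.6 and 46.1 in PMM and 26, 30.5 and 24.8 in LDM. The other fall was at chr5:17667431-17667518, with depths of 32.9, 23.1 and 24.2 in PMM and 63.3, 65.1 and 56.2 in LDM. The remaining rises, at chr5:17685813-17685932, chr5:17755086-17755249 and chr5:17765039-17765186, were of similar size, 1.63-fold, 1.6-fold and 1.68-fold higher. The lower DMRs of this gene held 6.67 and 7.95 CpGs per 100 bp, above the most dense higher DMR at 5.41. *SCN9A*, the sodium channel of pain-sensing neurons, was 2.89-fold lower in PMM at chr15:81348843-81348998, with depths of 18.1, 13.0 and 10.5 in PMM and 46.2, 39.1 and 38.0 in LDM.

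Chloride channel and anoctamin genes split evenly, with 7 of 14 DMRs higher and 7 lower in PMM in 9 genes and a median difference of -0.22. Anoctamins, which include calcium-activated chloride channels and lipid scramblases, had 2 higher and 4 lower DMRs. *ANO1*, the calcium-activated chloride channel itself, had a larger fall at chr2:1897729-1897914 than any other channel DMR at a pseudocount of 1, whereas with 0.25 that of the *CLCN1* DMR described above was larger. Depths of the *ANO1* DMR were 6.66, 2.33 and 1.73 in PMM and 25.7, 18.5 and 16.9 in LDM, 5.11-fold lower in PMM, with a difference of -2.35 ± 0.38 (SE) and an adjusted p of 0.000355 in limma. Its other DMR, 311 kb away at chr2:1586268-1586460 and annotated to another transcript, had depths of 4.70, 1.16 and 3.12 in PMM and 14.0, 11.0 and 11.9 in LDM. Both had little signal left in PMM. *ANO6*, a scramblase, was 2.94-fold lower in PMM. The rises were in *ANO10*, 2.36-fold higher with depths of 20.6, 18.6 and 15.6 in PMM and 9.20, 6.22 and 6.26 in LDM at chr13:29746353-29746541, and in *ANO3*, 1.55-fold higher.

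The CLC genes besides *CLCN1* encode chloride-proton exchangers of endosomes and lysosomes. *CLCN4*, on the X chromosome, had DMRs 3.62 kb apart with opposite directions. The one in a CpG island, at chrX:7348951-7349103, was 3.66-fold lower in PMM, with depths of 2.02, 2.97 and 3.93 in PMM and 12.0, 11.3 and 17.1 in LDM, and the other, at chrX:7345073-7345327, was 1.58-fold higher, with depths of 76.8, 89.4 and 90.9 in PMM and 54.5, 54.6 and 51.9 in LDM. *CLCN5*, also on the X chromosome, was lower in PMM in its first intron at chrX:48709182-48709256, with depths of 5.89, 7.81 and 6.09 in PMM and 17.0, 14.7 and 12.8 in LDM. Further along, its last intron at chrX:48734726-48734847 was higher like its exon, with depths of 57.4, 53.9 and 66.7 in PMM and 38.2, 35.4 and 41.3 in LDM. *CLCN6* was 1.64-fold higher in PMM.

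Transient receptor potential genes held 10 DMRs in 8 genes, 6 higher and 4 lower in PMM. All 5 DMRs of the TRPC channels *TRPC4*, *TRPC6* and *TRPC7*, which respond to phospholipase C, were higher in PMM, with a median of 3.15 CpGs per 100 bp. Of the 4 TRPM genes, *TRPM3*, *TRPM4* and the magnesium channel *TRPM6* were lower, and the cold receptor *TRPM8* was 1.62-fold higher, with a median of 9.72 CpGs per 100 bp. *TRPM3* was 2.74-fold lower and *TRPM6* 2.01-fold lower in PMM. The *TRPC4* DMRs were 1.68-fold and 1.77-fold higher, and the *TRPC7* DMRs 1.69-fold and 1.54-fold higher. *TRPC4AP*, the binding partner, was 2.89-fold lower.

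Receptors opened by transmitters had 18 DMRs. Glutamate receptor genes held 14 in 9 genes, 10 higher and 4 lower in PMM, with a median difference of 0.73. The kainate receptors *GRIK1*, *GRIK2* and *GRIK4* had 5 higher and 1 lower, the AMPA receptors *GRIA3* and *GRIA4* 2 higher and 1 lower and the NMDA receptors *GRIN2B* and *GRIN2D* 3 higher. *GRIK4* carried 3 intronic DMRs within 54.2 kb. Depths were 26.9, 33.9 and 31.7 in PMM and 16.6, 18.4 and 17.6 in LDM at chr9:53117775-53118223, 51.8, 58.3 and 55.7 in PMM and 35.6, 30.8 and 32.0 in LDM at chr9:53170686-53170936 and 49.0, 61.2 and 58.4 in PMM and 33.8, 37.5 and 32.6 in LDM at chr9:53171866-53171997. All were higher in PMM by 0.68 to 0.77 on the log2 scale. *GRID1*, a delta receptor, at chr14:93469360-93469423, was the largest fall of the class, 2.66-fold lower in PMM with depths of 4.85, 3.02 and 3.33 in PMM and 13.6, 11.0 and 9.92 in LDM.

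Smaller changes were seen in other glutamate receptor genes. *GRIK2* was 1.92-fold lower and *GRIA4*, where 5 CpGs lay within 17 bp, 1.44-fold lower in PMM. *GRIN2B* was 1.73-fold higher and the intronic DMR of *GRIA3* 1.66-fold higher. *GABRA2*, a subunit of the inhibitory GABA-A receptor, had the only DMR of its class, at chr8:38228229-38228282, with depths of 4.85, 3.82 and 3.27 in PMM and 13.9, 9.33 and 13.1 in LDM, which made it 2.62-fold lower in PMM.

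The direction of a channel DMR went with its CpG density. Channel DMRs higher in PMM had a median of 3.77 CpGs per 100 bp and a median length of 194 bp, and those lower in PMM of 7.32 CpGs per 100 bp and 94 bp. Across the 101 DMRs Spearman's correlation of CpG density with the log2 difference was -0.57, beside -0.55 over all listed DMRs. DMRs share the 6 libraries, and in part a gene, so they are not independent points. When all listed DMRs were put into 4 equal classes of density, 28 of 30 channel DMRs of the sparsest class were higher in PMM (93.3%), 22 of 28 in the next (78.6%), 10 of 23 in the third (43.5%) and 2 of 20 in the densest (10.0%). In the same classes 93.2%, 74.7%, 37.3% and 17.3% of the DMRs of other named genes were higher. Exceptions in the outer classes, named after their values were seen, included *KCNN3* at chr4:103857939-103858018 among the dense and *ANO1* at chr2:1897729-1897914 among the sparse. Read depth in MeDIP-seq depends on CpG density by its nature, and the part of the assay in this relation was not tested.

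**Figure D4:**
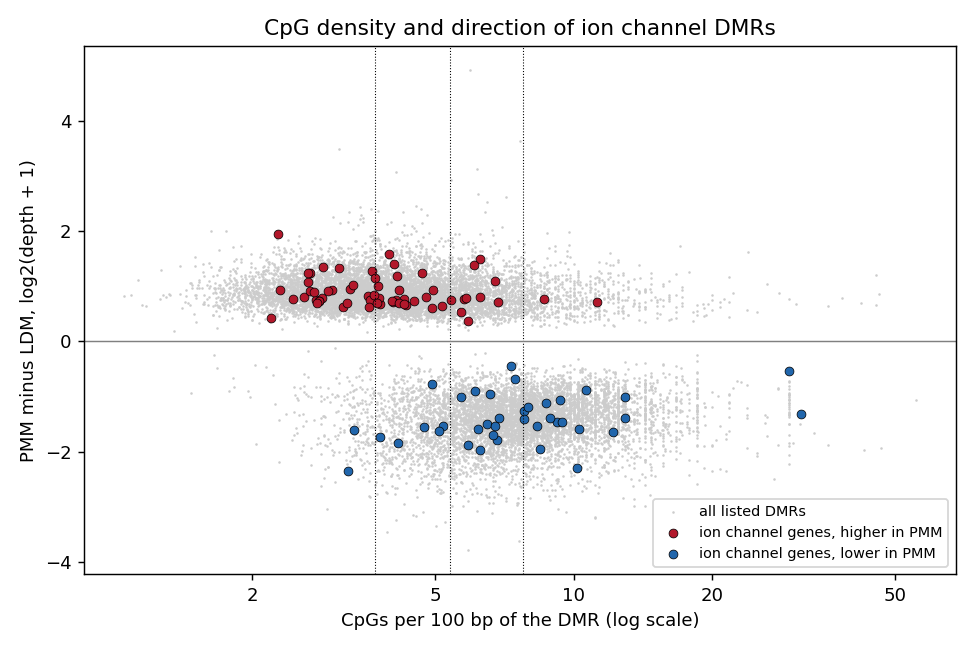
Each coloured point is 1 of the 101 DMRs of ion channel genes and each grey point 1 of the 15633 listed DMRs, with the CpGs per 100 bp of the DMR on a log scale along the horizontal axis and the difference PMM minus LDM of log2(depth + 1) along the vertical axis. Dotted lines separate the 4 density classes, and the share of channel DMRs higher in PMM (red) goes down from 93.3% in the class at the left to 10.0% in the class at the right.

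Within genes the same order was seen. Of 22 channel genes with 2 or more DMRs, 10 were higher in PMM in all of them, 3 were lower in all of them, among them *ANO1* and *KCNH4*, and 9 held both directions. Mixed genes made up 40.9%, beside 54.8% of other named genes with 2 or more DMRs. In 8 of the 9 mixed genes the lower DMRs were on average denser than the higher ones, and in 7 every lower DMR was denser than every higher one. Among these 7 the gap was small in *CACNG4*, at 3.80 against 3.65 CpGs per 100 bp. It was also small in *CACNB2*, where the sparsest lower DMR had 6.25 and the higher DMR 5.79. *KCNN3* was an exception DMR by DMR.

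The channel list as a whole was sparser in CpGs than other named genes, with a median of 4.72 against 5.22 CpGs per 100 bp. Its share of DMRs higher in PMM was 61.4%, and other named genes with the density classes of the channel DMRs would have 60.3%. The solute carrier genes, another family of membrane proteins with 111 DMRs in 74 genes, had 54.1% higher in PMM and a median of 5.26 CpGs per 100 bp. CpG islands held 2 channel DMRs, or 1.98%, beside 2.02% of the DMRs of other named genes and 1.45% of all listed DMRs. Their shores held 5 channel DMRs, or 4.95%, beside 7.25% of all listed DMRs, 10.1% of the DMRs of other named genes and 18.0% of those of solute carriers.

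When the trend of depth on CpG density over all listed DMRs was subtracted from each library, 51 channel DMRs passed, where 55.2% of all listed DMRs passed. Of these, 26 were still higher and 23 still lower in PMM, and *CHRNB3* and *CACNG8* passed in the other direction. Calls in the original direction remained for 48.5% of the channel DMRs, beside 53.8% of all listed DMRs. By class, they remained for 11 of 14 chloride channel and anoctamin DMRs, 3 of 4 *RYR1* DMRs and 9 of 15 calcium channel DMRs. They also remained for 15 of 29 potassium channel, 3 of 9 sodium channel, 4 of 14 glutamate receptor and 2 of 10 TRP DMRs. The *RYR1* falls at chr6:42874455-42874542 and chr6:42885953-42885968 were among those that remained, with differences of -1.05 and -0.63 from the trend. The *RYR1* fall at chr6:42887869-42888086, which spans 19 CpGs, lost its call, with a difference of -0.14 and an adjusted p of 0.450 in limma.

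Genes that work with ion channels but lie outside the symbol rule were taken from a list of 240, of which 67 had 97 DMRs. Of these DMRs 52 were higher (53.6%) and 45 lower in PMM, beside 55.9% higher among all listed DMRs. All passed the threshold, as did 99.9% of all listed DMRs. The calcium release and store entry genes had 6 of 15 DMRs higher, 9 lower and a median difference of -1.01, and work in the same step as *RYR1*. *STAC2*, an adaptor that binds voltage-gated calcium channels, was 3.71-fold lower in PMM in an exon at chr12:23468569-23468850, with depths of 5.15, 3.10 and 3.55 in PMM and 21.0, 14.3 and 16.4 in LDM, and *STIM1*, the store calcium sensor, was 1.80-fold higher in an intron at chr9:6944781-6944854, the largest rise of the group, with depths of 65.2, 57.0 and 60.5 in PMM and 32.5, 36.1 and 31.6 in LDM. The other intronic DMRs of *STIM1* were 2.46-fold lower in PMM at chr9:6881183-6881293 and 1.77-fold higher at chr9:6868808-6869061. Ion pumps and exchangers went mostly up, with 12 of 17 DMRs higher and a median of 0.75. They held a median of 3.96 CpGs per 100 bp, beside 5.94 in the calcium release and store entry genes and 5.38 in all listed DMRs. The plasma membrane calcium pump *ATP2B2* was 2.43-fold higher and the Golgi calcium pump *ATP2C2* 4.51-fold lower in PMM. Other pores had 13 of 22 higher and a median of 0.57, from the chloride channel *CFTR* at 2.86-fold higher to *LRRC8B*, a subunit of volume-regulated anion channels, at 6.72-fold lower in an intron at chr4:139113674-139113925. The promoter DMR of *LRRC8B* at chr4:139123605-139123702 was 1.84-fold higher in PMM.

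Anchoring and auxiliary proteins of channels had 21 higher and 22 lower DMRs, with a median of -0.89. *DPP6*, an auxiliary subunit of Kv4 potassium channels, was lower in all 3 of its intronic DMRs. At chr18:3388268-3388320 its depths were 2.91, 0 and 2.08 in PMM and 14.4, 12.6 and 13.8 in LDM, 6.37-fold lower in PMM. The fold ran from 4.21- to 8.32-fold when each library was left out, and was lowest without PMM replicate 2. The *KCNIP* genes, which serve the same Kv4 channels, were higher in all 3 of theirs. The *DPP6* DMRs held 9.64, 5.20 and 9.43 CpGs per 100 bp and the *KCNIP* DMRs a median of 3.27. After subtraction of the density trend, *KCNIP2* and *KCNIP4* at chr8:15481331-15481483 lost their calls, with adjusted p of 0.488 and 0.296 in limma. The other *KCNIP4* DMR and all *DPP6* DMRs kept theirs. The largest rise of the group was the promoter of *LGI3*, a secreted partner of neuronal potassium channels, at chr14:6866005-6866273. Its depths were 13.8, 15.3 and 12.3 in PMM and 4.71, 4.44 and 3.08 in LDM, which made it 2.94-fold higher in PMM. No gene of the 32 connexins, pannexins and aquaporins of the list had a listed DMR in a promoter, exon or intron.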

How the data were processed

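The deposited list of DMRs between PMM and LDM was used. The authors aligned the MeDIP reads to Sscrofa10.2 with SOAP2, dropped CpGs with a read depth under 10 and joined CpGs that differed between the muscles into DMRs. The deposited values are a coverage signal, the mean read depth per CpG of each DMR, with each library scaled by 1 factor by the authors. The step of the values gave the relative depth before scaling, which was lowest in PMM replicate 1, at 0.825 of LDM replicate 1. A read covers several CpGs, so no count model was used, and library totals are not known here. The authors' averages, p-values and false discovery rates were not used.

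Elements were ranked promoter (up to 2 kb upstream), exon, intron. Genes were named by the human symbol of the list, else by the pig symbol. In R 4.3.3, limma 3.58.1 (lmFit, eBayes with a variance trend) was fitted to log2(depth + 1) of all 15633 DMRs by muscle alone, with Benjamini-Hochberg adjustment over all of them at 0.05. Folds on this scale understate changes at low depth. For 1 region, 3 against 3 libraries cannot go below p = 0.1 in an exact permutation test. The fit was tested on simulated data. Same-numbered libraries of the muscles deviated together with correlations of 0.04, 0.24 and 0.02, and differently numbered ones with correlations from -0.21 to 0.18. These values do not settle the pairing, and no label gives it, so the numbers were not taken as pairs.

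DMRs named by rule were those in promoters and exons, the largest rise and fall of each channel class, all DMRs of genes with 3 or more, and those of a list of 32 muscle excitation genes. Some DMRs chosen in this way are counted but not reported by name here. For partner genes the largest rise and fall of each group were named. The members and all lists were chosen with earlier results of these data known. Alternatives were pseudocounts of 0.25 and 4, a mean depth of at least 10, equal library medians, depth before scaling, no variance trend, a replicate block, each library left out, and subtraction of the CpG density trend.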

Additional observations from a re-analysis of the deposited data

How the results depend on the processing

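All 101 channel DMRs kept their call and direction with pseudocounts of 0.25 and 4, without the variance trend and when each library was left out, with a median difference from 0.65 (without LDM replicate 3) to 0.72 (without PMM replicate 1). With the replicate number as a block, 101 passed and no call changed. A minimum mean depth of 10 left 96 DMRs, 62 higher and 34 lower, all past the threshold. The median difference was 0.65 with a pseudocount of 4, 0.57 with depth before scaling and 0.85 with equal library medians, while over all listed DMRs it was 0.53, 0.43 and 0.71 in these settings and 0.56 as reported. Pseudocounts moved the *CLCN1* DMR at chr18:7180689-7180747 by over 1.5-fold, and the pseudocount of 4 both *ANO1* DMRs too. Depth before scaling ended 2 calls, among them that of *CHRNB3*, and equal medians that of *CACNG8*.

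Subtraction of the CpG density trend changed most. Then 51 channel DMRs passed, 27 higher and 24 lower, with a median difference of 0.090. Call and direction were kept by 53.8% of all listed DMRs. Of the 67 DMRs chosen by the naming rule, 33 kept both, 26 kept the direction only and 8 turned. These were *CACNA1E* at 135244407 (-0.012) and 135455619 (-0.068), *GRIK4* at 53117775 (-0.071) and 53170686 (-0.066), *GRIN2D* at 49609739 (-0.114), *KCNT2* at 24066510 (-0.029), *KCNN3* at 103818352 (0.166) and *CHRNB3* (-0.450), of which only *CHRNB3* passed the threshold, with an adjusted p of 0.0111 in limma. The alternative removes what density shares with the muscle difference, and the cause of that relation was not tested. Regions with little signal, such as the *RYR1* exon in PMM replicate 2, carry the least precise folds.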
